A study of Homo sapiens with 12 samples.

Results

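The prostaglandin pathway was followed through 9 genes picked by name from the 60671 genes counted. They cover arachidonate release (PLA2G4A), the cyclooxygenases (PTGS1 and PTGS2), terminal synthases (PTGES, PTGIS and PTGDS) and receptors (PTGER2, PTGER4 and PTGFR). The rule that selects them uses their names and no measured value, although they were listed with earlier results of these data known. Of the 9, 7 were expressed highly enough to be tested, PTGER2 was below the limit of more than 1 CPM (counts per 1000000 gene counts) in 3 libraries, and PTGDS had no counts.

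The cells were BJ-5ta, a line of human foreskin fibroblasts immortalized with the telomerase catalytic subunit, hTERT. Wild-type (WT) cells and ΔLEO1 cells were grown in RPMI medium with 10% FBS (groups WT_10 and Leo1_10) or held for 10 days in the same medium with 0.1% FBS, which arrests them in quiescence (WT_01 and Leo1_01). LEO1 is a subunit of the PAF1 complex, which travels with RNA polymerase II. The ΔLEO1 cells came from CRISPR/Cas9 cutting with a pair of guides in exons 1 and 2 and were a single clone, so the spread between their libraries does not cover differences between clones. Poly(A) RNA was sequenced from 3 libraries in each of the 4 groups, and the labels number the libraries from 1 to 12 over the series. The labels do not say whether these were separate cultures, and p-values therefore measure the spread between these libraries, which may be technical.

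Prostaglandins are lipid signals made from arachidonic acid. Cytosolic phospholipase A2 releases the acid from membranes, a cyclooxygenase converts it to prostaglandin H2, and terminal synthases turn this into prostaglandin E2, prostacyclin or prostaglandin D2, which act on G protein-coupled receptors at the cell surface. In fibroblasts PTGS1 is made steadily, whereas PTGS2 is an early-response gene that serum, growth factors and inflammatory cytokines induce.

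Promoter sequences are shown for the cyclooxygenase pair, 1 constitutive and 1 inducible gene, and for PLA2G4A and PTGFR, which differed between the genotypes in both sera. RefSeq held entries for 8 of the 9 members, all but PTGIS. Each line gives the 250 bases before the RefSeq start of the gene on GRCh38.p14, read along its own strand. The windows are chr9:122370283-122370532 (plus strand) for PTGS1, chr1:186680424-186680673 (minus strand) for PTGS2, chr1:186828699-186828948 (plus strand) for PLA2G4A and chr1:78490724-78490973 (plus strand) for PTGFR. Capitals mark matches to 5 motifs searched on both strands, which are the TATA box (TATAAA), the CCAAT box (CCAAT), the GC box (GGGCGG), a short cAMP response element (TGACG) and the NF-kB motif.
PTGS1: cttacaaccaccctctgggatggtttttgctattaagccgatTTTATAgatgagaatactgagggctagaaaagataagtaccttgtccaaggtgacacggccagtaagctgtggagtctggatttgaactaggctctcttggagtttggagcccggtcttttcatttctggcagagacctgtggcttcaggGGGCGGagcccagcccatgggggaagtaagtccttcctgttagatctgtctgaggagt
PTGS2: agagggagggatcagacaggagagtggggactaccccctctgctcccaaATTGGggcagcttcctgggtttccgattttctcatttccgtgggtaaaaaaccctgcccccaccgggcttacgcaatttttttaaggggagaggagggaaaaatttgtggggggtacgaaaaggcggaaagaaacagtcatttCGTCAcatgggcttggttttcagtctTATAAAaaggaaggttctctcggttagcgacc
PLA2G4A: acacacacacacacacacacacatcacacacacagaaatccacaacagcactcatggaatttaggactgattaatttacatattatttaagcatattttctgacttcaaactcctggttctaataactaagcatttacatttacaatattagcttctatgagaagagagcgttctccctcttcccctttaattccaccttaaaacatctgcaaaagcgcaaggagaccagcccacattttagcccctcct
PTGFR: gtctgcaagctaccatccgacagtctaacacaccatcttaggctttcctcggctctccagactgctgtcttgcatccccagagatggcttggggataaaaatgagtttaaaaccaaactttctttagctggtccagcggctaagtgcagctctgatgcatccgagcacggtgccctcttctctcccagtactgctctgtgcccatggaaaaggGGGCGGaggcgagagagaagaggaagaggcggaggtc
The PTGS2 window held a TATA box 32 bases before the start, a cAMP response element 58 bases before it on the opposite strand, and a CCAAT box 201 bases before it on the opposite strand. Its far end overlaps an exon of PACERR, a lincRNA that GENCODE annotates on the other strand, and its near end holds a few bases of GENCODE's first PTGS2 exon. The PTGS1 window held a GC box 58 bases before the start and a TATAAA match 208 bases before it on the opposite strand. PTGFR had 1 GC box, 37 bases before its RefSeq start, and this start lies inside the longer GENCODE gene. None of the 5 motifs matched the PLA2G4A window, which had 38.8% GC against a median of 58% over promoters. Of 35116 RefSeq promoters of this length, 10.7% held TATAAA, 32% CCAAT, 42.6% GGGCGG, 21.2% TGACG and 9.96% the NF-kB motif. These matches describe letters in the windows only.

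The libraries held 26240632 to 45315560 gene counts, with 0.625% to 3.24% of counts from the ERCC spike-in transcripts. The targeted gene followed the labels, with 682 to 1001 LEO1 counts in each WT library and 23 to 55 in each ΔLEO1 library. The highest-numbered library of each group (3, 6, 9 and 12) stood apart from the other two, and member calls that changed without these libraries are given both ways. All 10 fibroblast markers exceeded 1 CPM in every group, while summed epithelial, endothelial and melanocyte markers stayed at or below 1.79 CPM in every library. The leukocyte and mast cell list was the exception. It summed to 52.1 to 62.6 CPM in Leo1_10 and 16.3 to 23.3 in Leo1_01, against 1.30 to 1.63 in WT_10 and 0.743 to 1.22 in WT_01. CPA3 and PTPRC were the 2 of its 6 markers above 1 CPM in ΔLEO1 cells, AIF1 and TPSAB1 were at 0 in every library, and the part of this difference in the genotype results was not tested. In bulk RNA, fewer cells of a type and less RNA per cell cannot be told apart.

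Levels were compared between genes as CPM per 1000 exon bases. PTGS1 had the highest mean in all 4 groups, at 40.6 ± 14.9 (SD, n = 3) in WT_10, 50.8 ± 3.27 in WT_01, 18.4 ± 2.07 in Leo1_10 and 30.2 ± 5.31 in Leo1_01. In WT_10, PTGS2 followed with 31.8 ± 23.1, then PTGIS with 20.0 ± 7.18, PTGES with 11.95 ± 1.86 and PTGFR with 7.55 ± 1.62. The libraries of PTGS1 and PTGS2 overlapped there, as did those of PTGS2 and PTGIS and those of PTGIS and PTGES. PLA2G4A (0.758 ± 0.0727), PTGER4 (0.371 ± 0.0546) and PTGER2 (0.0671 ± 0.0138) were lower and each was apart from the next. In the other 3 groups PTGES came next after PTGS1, overlapping PTGIS in WT_01 and PTGS2 in Leo1_10 and overlapping no neighbour in Leo1_01. PTGIS stood at 19.4 ± 3.998 in WT_01, just below PTGES, at 1.74 ± 0.253 in Leo1_10, below PTGES and PTGS2, and at 3.81 ± 1.24 in Leo1_01, where it overlapped PTGS2. The lowest expressed member was PTGER2 in WT cells and PLA2G4A in ΔLEO1 cells. PTGDS, the lipocalin-type prostaglandin D2 synthase, had 0 counts in all 12 libraries, and a count of 0 allows up to 3 counts, or 0.0662 to 0.114 CPM per library. A gene that GENCODE places on the same strand overlaps 634 of its exon bases.

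**Figure D1:**
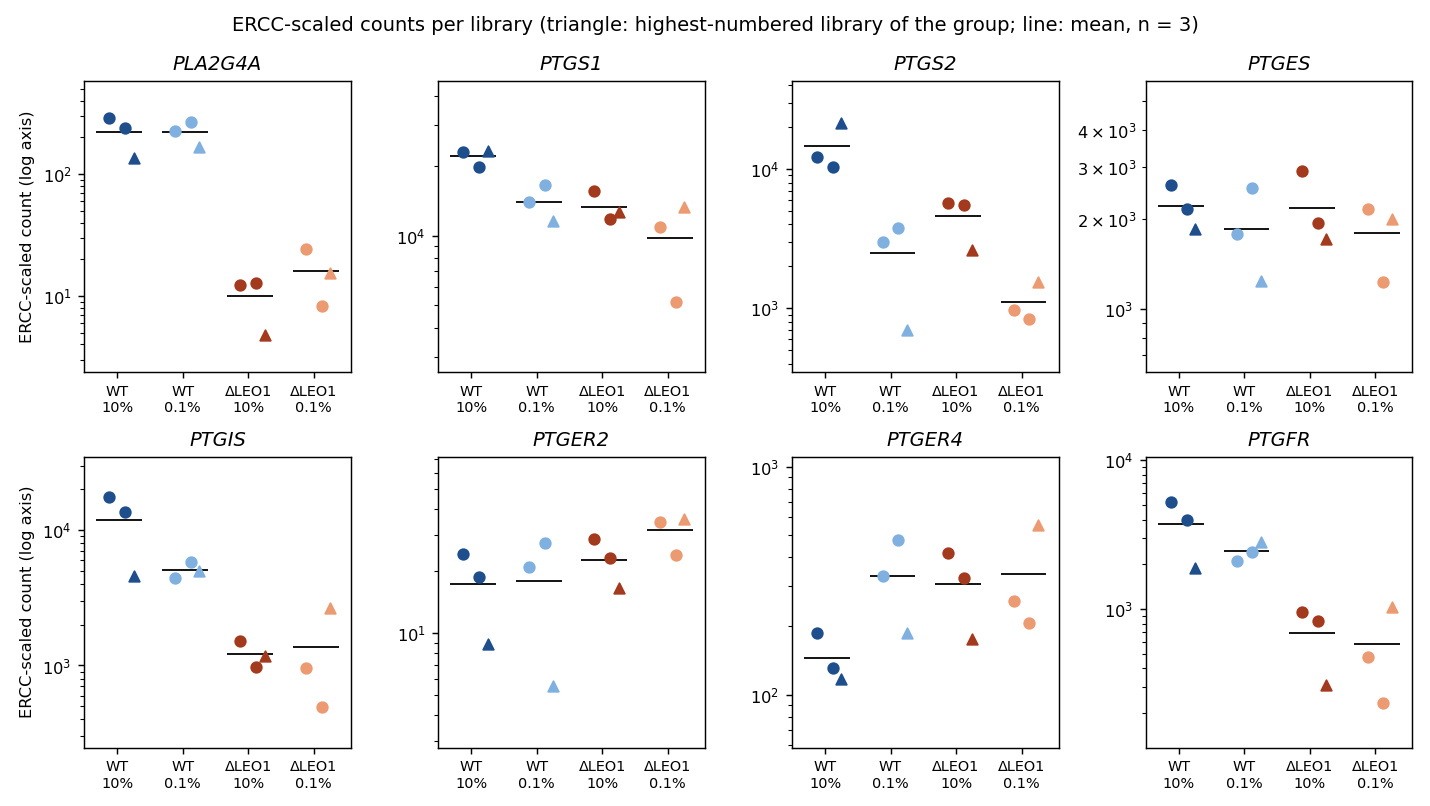
Counts of the 8 expressed members in each library, scaled to the ERCC counts (log axes, a separate range for each gene), for WT and ΔLEO1 cells in 10% and 0.1% serum. Circles and triangles are libraries, triangles the highest-numbered one of each group, and lines the mean of 3. PLA2G4A, PTGIS and PTGFR lie lower in every ΔLEO1 library than in every WT library. Within each genotype PTGS2 lies lower in every 0.1% serum library than in every 10% serum library.

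Differences were tested on counts scaled to the ERCC transcripts, which keeps changes in the RNA content of the libraries. The ERCC share of counts also varied within groups, from 1.09% to 3.24% in Leo1_01 and from 0.785% to 1.45% in WT_10. The part of this spread in the calls was not tested. A gene was called at an adjusted p under 0.05. In WT cells, 2 of the 7 tested members were lower in 0.1% than in 10% serum and 0 higher, where 36.1% of all tested genes were called lower and 0.944% higher. In ΔLEO1 cells 1 was lower and 0 higher (all genes 47.2% and 0.975%). Between the genotypes in 10% serum, 4 were lower in ΔLEO1 cells and 0 higher (all genes 4.64% and 4.2%), and in 0.1% serum 3 were lower and 0 higher (all genes 3.59% and 3.85%). The member counts in the serum comparisons thus lay below or near the share of all genes. PLA2G4A passed the filter through its WT libraries alone, with at most 0.460 CPM in ΔLEO1 cells, and so had to differ between the genotypes. The genotype counts include it and are therefore not read against these shares. Counted by groups whose ERCC-scaled values did not overlap, 2 members were lower and 0 higher for serum in WT cells (all genes 53.4% and 1.16%) and 1 and 0 in ΔLEO1 cells (50.9% and 0.846%). Between the genotypes 5 were lower and 0 higher in 10% serum (6.94% and 23.7%), and 3 were lower and 0 higher in 0.1% serum (4.83% and 4.64%). Far more genes were called for serum without the highest-numbered library of every group, 9508 in WT cells and 12117 in ΔLEO1 cells in either direction. That setting called 1747 genes between the genotypes in 10% serum and 2375 in 0.1% serum. Member calls in that setting are to be read beside these numbers.

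The median log2 fold change of the 7 was -0.60 for serum in WT cells and -0.26 in ΔLEO1 cells, where the medians of all genes were -0.97 and -1.05. Between the genotypes it was -1.67 in 10% serum and -1.16 in 0.1% serum, where all genes had 0.35 and 0.27. These genotype medians include PLA2G4A, which passed the filter through its WT libraries alone. They are therefore not read against those of all genes. Scaled on the genes themselves (TMM), the medians of all genes came close to 0 and the member counts turned for serum. They became 1 lower and 3 higher in WT cells (all genes 16.6% and 16%) and 0 lower and 5 higher in ΔLEO1 cells (12.9% and 16.5%). The genotype counts became 5 lower and 1 higher in 10% serum (21.8% and 17.7%) and 4 lower and 0 higher in 0.1% serum (17.6% and 15.4%).

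**Figure D2:**
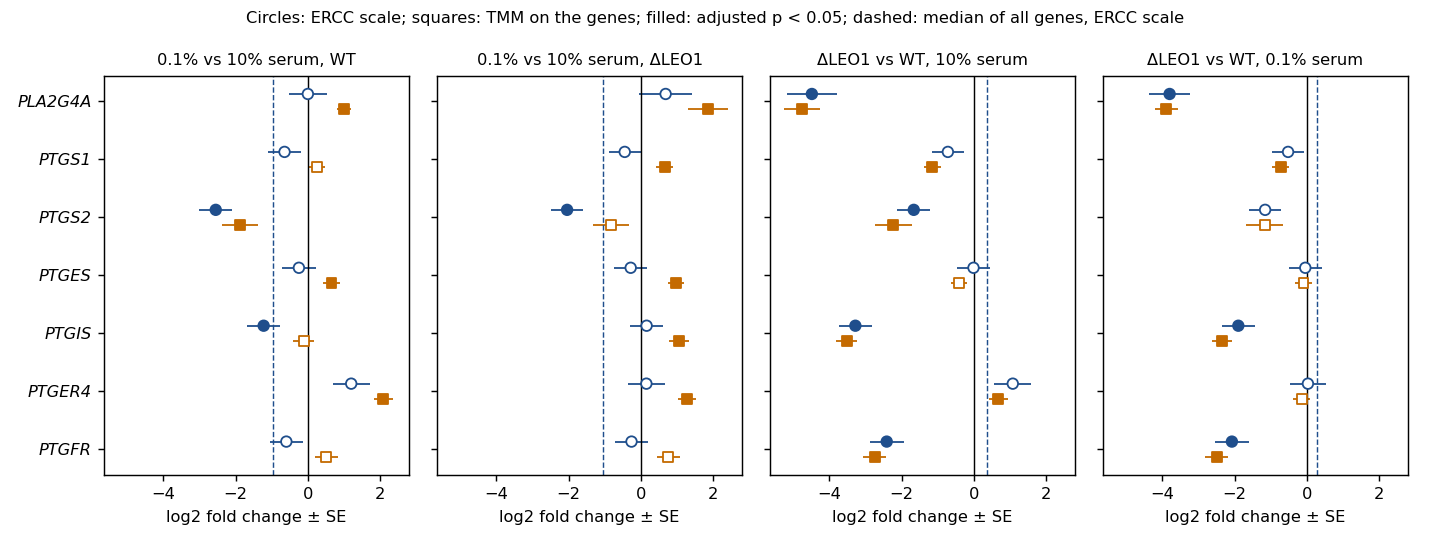
The log2 fold change of the 7 tested members in each comparison, with its SE, on the ERCC scale (circles) and with TMM scaling on the genes (squares). Filled symbols have an adjusted p under 0.05 and the dashed line is the median of all genes on the ERCC scale. Of the 14 serum differences 7 move across 0 between the scales, while PLA2G4A, PTGIS and PTGFR stay far below 0 in ΔLEO1 cells, from -1.90 for PTGIS in 0.1% serum to -4.49 for PLA2G4A in 10% serum on the ERCC scale.

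PLA2G4A, the cytosolic phospholipase A2 that frees arachidonic acid, was almost absent from ΔLEO1 cells. The gene (ENSG00000116711) spans chr1:186828953-186988981 on the plus strand. It had 84, 90 and 76 counts in the WT_10 libraries and 3, 5 and 2 in the Leo1_10 libraries. In 0.1% serum the counts were 163, 117 and 150 in WT cells and 16, 9 and 6 in ΔLEO1 cells. The genotypes did not overlap in either serum, and the lowest WT library was far above the highest ΔLEO1 library. In 10% serum ΔLEO1 cells had a 22.4-fold lower level (-4.49 on the log2 scale, SE 0.69, adjusted p = 1.93e-09). In 0.1% serum it was 13.9-fold lower (-3.80, SE 0.58, adjusted p = 2.68e-08). Summed over the libraries, 10 counts against 250 gave 4.65% of the WT level in 10% serum, with an exact 95% interval of 2.20% to 8.69% that covers counting error only. In 0.1% serum 31 against 430 counts gave 6.93% (4.65% to 9.98%). Both calls held without each of the 12 libraries in turn. The gene passed the filter through its WT libraries alone, so a genotype difference was set in part by the filter. These p-values and fits are therefore not read as support for the difference, which the counts describe.

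Serum did not separate the PLA2G4A groups on the ERCC scale. For WT cells the fit gave -0.0045 (SE 0.52, adjusted p = 0.995) and a 95% interval from -1.02 to 1.02. For ΔLEO1 cells it gave 0.68 (SE 0.73, adjusted p = 0.381). Relative to the other genes, where the median fell, PLA2G4A was higher in low serum, by a TMM log2 fold change of 0.99 in WT cells (adjusted p = 9.38e-06) and 1.86 in ΔLEO1 cells (adjusted p = 0.00151).

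PTGS2, the inducible cyclooxygenase (ENSG00000073756, chr1:186671791-186680427, minus strand), was lower in low serum in both genotypes and lower in ΔLEO1 cells in 10% serum. Its ERCC-scaled counts were 12128, 10324 and 21395 in WT_10 and 3017, 3756 and 699 in WT_01. They were 5660, 5526 and 2635 in Leo1_10 and 966, 844 and 1542 in Leo1_01. Within each genotype the sera did not overlap. In 10% serum the genotypes did not overlap either, and in 0.1% serum they did, since WT_01 library 9 lay below all 3 ΔLEO1 libraries.

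In low serum PTGS2 fell 5.87-fold in WT cells (log2 fold change -2.55, SE 0.45, adjusted p = 4.79e-06) and 4.13-fold in ΔLEO1 cells (-2.04, SE 0.45, adjusted p = 4.84e-04). Both falls exceeded the median of all genes. With TMM scaling the WT fall was 3.68-fold and was called (adjusted p = 0.00187), and the ΔLEO1 difference of -0.82 was not (adjusted p = 0.223). In 10% serum PTGS2 was 3.17-fold lower in ΔLEO1 than in WT cells (-1.67, SE 0.45, adjusted p = 0.00531). This call was lost without WT_10 library 3 (-1.29, adjusted p = 0.0974) and without Leo1_10 library 6 (-1.36, adjusted p = 0.132). In 0.1% serum the difference of -1.16 (SE 0.45) missed the threshold at an adjusted p of 0.124. It passed without WT_01 library 9 (-1.60, adjusted p = 0.0270), without Leo1_01 library 12 (-1.46, adjusted p = 0.00734) and without the highest-numbered library of every group (-1.90, adjusted p = 5.70e-06). Without WT_01 library 8 the PTGS2 difference was smaller (-0.73, adjusted p = 0.601).

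PTGS1, the constitutive cyclooxygenase (ENSG00000095303, chr9:122370530-122395703, plus strand), differed less. Its ERCC-scaled counts were 22911, 19840 and 23229 in WT_10, 15496, 11824 and 12679 in Leo1_10, 13953, 16499 and 11585 in WT_01, and 10907, 5148 and 13224 in Leo1_01. WT_10 lay above the other groups. None of the 4 differences was called, with log2 values from -0.72 (genotype in 10% serum, SE 0.45, adjusted p = 0.428) to -0.45 (serum in ΔLEO1 cells, adjusted p = 0.352). With TMM scaling PTGS1 was lower in ΔLEO1 cells in both sera, by -1.15 in 10% serum (adjusted p = 9.49e-06) and by -0.73 in the low serum (adjusted p = 0.00884). The serum difference of PTGS1 in ΔLEO1 cells was called higher with TMM scaling (0.66, adjusted p = 0.0215) and lower on the ERCC scale without the highest-numbered library of every group (-0.77, adjusted p = 0.0371).

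The ratio of PTGS2 to PTGS1 counts within a library does not depend on the scaling. As a log2 value it was -0.66 ± 0.47 (SD, n = 3) in WT_10, -2.80 ± 1.08 in WT_01, -1.61 ± 0.60 in Leo1_10 and -3.07 ± 0.44 in Leo1_01. Low serum moved the mean by -2.14 in WT cells and by -1.46 in ΔLEO1 cells, with no overlap between the groups in either genotype. The exact two-sided permutation p was 0.1 for both, the smallest that 3 libraries against 3 allow, and 0.171 after adjustment over 12 tests. The genotype difference was -0.95 in 10% serum (exact p = 0.1) and -0.27 in 0.1% serum (exact p = 0.8). Without the highest-numbered libraries the first of these was -0.34.

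**Figure D3:**
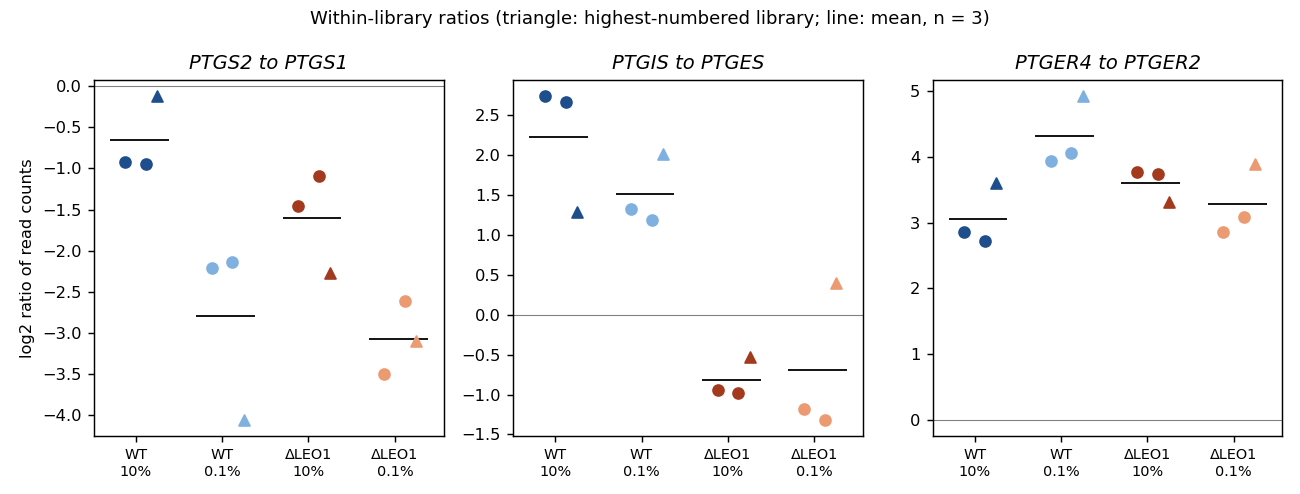
Log2 ratios of read counts within each library, for PTGS2 to PTGS1, PTGIS to PTGES and PTGER4 to PTGER2. Points are libraries, triangles the highest-numbered one of each group, and lines the mean of 3. The ratio of PTGIS to PTGES has a mean of 2.23 in WT_10 and -0.82 in Leo1_10, with no overlap between them.

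The high PTGS2 value of WT_10 library 3 came with high values of 4 inflammatory genes, from a list of PTGS2 inducers and co-induced genes. WT_10 library 3 had 308 CPM of PTGS2 against 96.2 and 98.3 in the other WT_10 libraries, a ratio of 3.17 to their mean. The same library held 9244 counts of CXCL8, a neutrophil chemokine, against 177 and 194, and 4517 counts of the cytokine IL6 against 97 and 149. It had 2459 counts of IL1B, interleukin-1 beta, against 110 and 187, and 2911 counts of TNFAIP3, a feedback inhibitor of NF-kB, against 362 and 507. WT_10 library 3 was thus the highest of the 12 libraries in PTGS2 and in these 4 genes. EGR1, IL1R1 and ZFP36 of the same list instead had their lowest WT_10 values in that library, at 649, 76.9 and 39.0 CPM. The part of the listed genes in the PTGS2 results was not tested.

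Of the 18 genes listed as PTGS2 inducers or co-induced genes 15 were tested. In 10% serum 4 were lower in ΔLEO1 cells, which were CXCL8 (-3.89, adjusted p = 1.17e-11), IL6 (-3.93, adjusted p = 7.22e-11), IL1B (-1.58, adjusted p = 0.0220) and EGR1, an early-response factor (-1.39, adjusted p = 0.0235), and 0 were higher. Of all genes 4.64% were called lower and 4.2% higher in this comparison. With TMM scaling 9 of the list were lower and 0 higher (all genes 21.8% and 17.7%). The EGR1 call was lost without WT_10 library 1 or 2 or Leo1_10 library 5 or 6, with adjusted p from 0.122 to 0.219. Without WT_10 library 3 the differences of CXCL8 (-0.52, adjusted p = 0.918) and IL6 (-0.94, adjusted p = 0.535) were not called, and that of IL1B became 0.40. The IL1B call was also lost without any 1 of the Leo1_10 libraries, with adjusted p from 0.0820 to 0.180. Between the genotypes in 0.1% serum 0 of the list were called. With TMM scaling 3 were lower and 0 higher there (all genes 17.6% and 15.4%). In low serum 4 were lower and 0 higher in WT cells, led by CXCL8 (-5.999, or -2.63 without WT_10 library 3, called in both). In ΔLEO1 cells 6 were lower, led by IL6 (-2.36, adjusted p = 4.65e-04, or -1.05 and 0.482 with TMM scaling), and 1 was higher. All genes called lower made up 36.1% in WT cells and 47.2% in ΔLEO1 cells, above the shares of this list. With TMM scaling 3 were lower and 4 higher in WT cells (all genes 16.6% and 16%). In ΔLEO1 cells 0 were lower and 5 higher on that scale (all genes 12.9% and 16.5%). The one that rose was LIF, a cytokine of the IL6 family (1.47, adjusted p = 0.0252), which had 0.41 without Leo1_01 library 12 (adjusted p = 0.410). The LIF call was also lost without Leo1_10 library 4 (0.101), Leo1_10 library 6 (0.110) or Leo1_01 library 10 (0.0628), given as adjusted p.

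**Figure D4:**
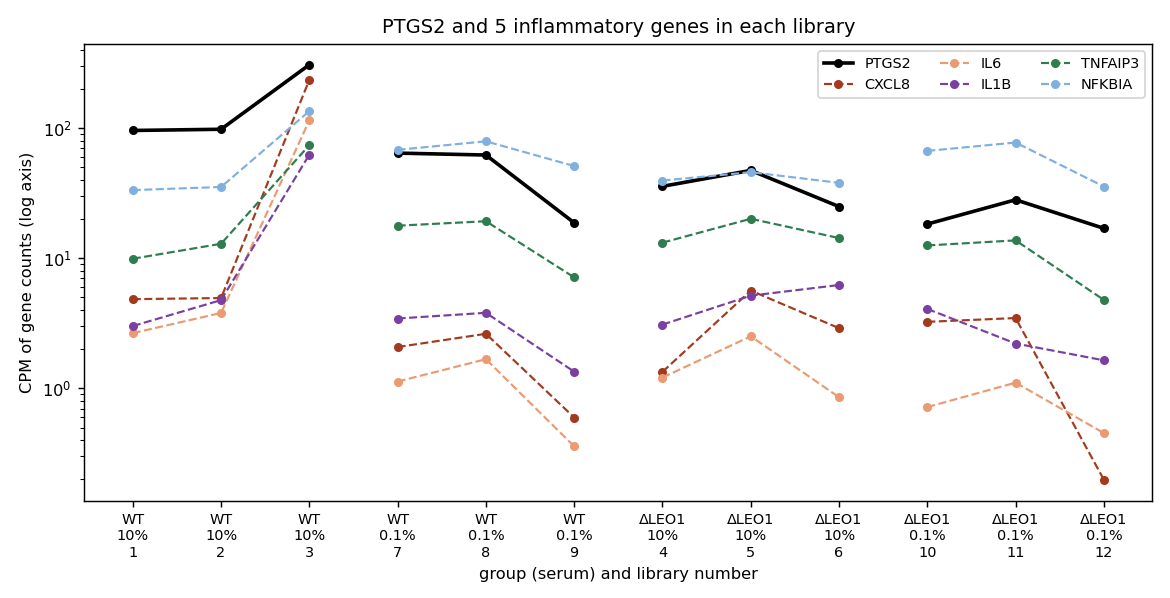
PTGS2 and 5 inflammatory genes in each of the 12 libraries, as CPM of gene counts on a log axis, with lines joining the libraries of a group. WT_10 library 3 is the highest for each of the 6 genes, with 308 CPM of PTGS2 and 236 CPM of CXCL8. In the other libraries PTGS2 ranges from 17.0 to 98.3 CPM.

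PTGIS, the prostacyclin synthase (ENSG00000124212, chr20:49503874-49568146, minus strand), was lower in ΔLEO1 cells in both sera. Its ERCC-scaled counts were 17452, 13734 and 4553 in WT_10 and 1509, 982 and 1184 in Leo1_10. In 0.1% serum they were 4461, 5789 and 5005 in WT cells and 954, 494 and 2652 in ΔLEO1 cells. The genotypes did not overlap in either serum. The highest ΔLEO1 value, 2652, came from library 12, and the lowest WT_10 value from library 3.

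PTGIS was 9.73-fold lower in ΔLEO1 than in WT cells in 10% serum (-3.28 on the log2 scale, SE 0.45, adjusted p = 1.83e-09) and 3.73-fold lower in 0.1% serum (-1.90, SE 0.45, adjusted p = 0.00118). Both calls held without each library in turn, and the second was 7.03-fold without Leo1_01 library 12 (-2.81). Serum gave a 2.34-fold fall in WT cells (-1.23, SE 0.45, adjusted p = 0.0295), close to the median of all genes. That call was lost without WT_10 library 1 (-0.86, adjusted p = 0.225), WT_10 library 2 (-1.11, adjusted p = 0.111), WT_01 library 7 (-1.14, adjusted p = 0.133) or WT_01 library 9 (-1.22, adjusted p = 0.113), and with TMM scaling (-0.12, adjusted p = 0.777). In ΔLEO1 cells the serum difference was 0.16 (adjusted p = 0.756), which turned to -0.76 without Leo1_01 library 12 (adjusted p = 0.0701). It was called lower without the highest-numbered library of every group (-0.78, adjusted p = 0.0337) and higher with TMM scaling (1.06, adjusted p = 0.00178).

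PTGES, the inducible membrane-bound prostaglandin E synthase (ENSG00000148344, chr9:129738331-129753047, minus strand), stayed within one range. ERCC-scaled counts were 2603, 2167 and 1857 in WT_10, 2912, 1944 and 1714 in Leo1_10, 1780, 2545 and 1238 in WT_01, and 2158, 1227 and 2004 in Leo1_01. All 4 groups overlapped. The genotype difference was -0.01 (-0.013, SE 0.46, 95% interval -0.92 to 0.89) in 10% serum and -0.05 (-0.045, SE 0.46, 95% interval -0.95 to 0.86) in 0.1% serum. These intervals leave room for smaller changes in either direction. For serum the values were -0.25 in WT cells (adjusted p = 0.619) and -0.29 in ΔLEO1 cells (adjusted p = 0.573), and with TMM scaling they were 0.65 (adjusted p = 0.0203) and 0.97 (adjusted p = 3.53e-04).

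In the balance of the 2 synthases within a library, the genotypes did not overlap in either serum. The log2 ratio of PTGIS to PTGES counts was 2.23 ± 0.82 (SD, n = 3) in WT_10, 1.51 ± 0.44 in WT_01, -0.82 ± 0.25 in Leo1_10 and -0.70 ± 0.95 in Leo1_01. Every WT library lay above 0 and 5 of the 6 ΔLEO1 libraries below it. The genotype difference was -3.06 in 10% serum and -2.20 in 0.1% serum (exact permutation p = 0.1 for each, 0.171 adjusted).

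PTGFR, the receptor for prostaglandin F2 alpha (ENSG00000122420, chr1:78303884-78539749, plus strand), was lower in ΔLEO1 cells. Its ERCC-scaled counts were 5283, 3966 and 1883 in WT_10 and 954, 828 and 309 in Leo1_10. They were 2107, 2418 and 2813 in WT_01 and 474, 235 and 1038 in Leo1_01. The genotypes did not overlap in either serum, whereas the sera overlapped in both genotypes. PTGFR was 5.33-fold lower in ΔLEO1 cells in 10% serum (-2.41, SE 0.47, adjusted p = 2.61e-05) and 4.22-fold lower in 0.1% serum (-2.08, SE 0.47, adjusted p = 4.71e-04), and both calls held without each library in turn. Without Leo1_01 library 12 the second was 6.92-fold (-2.79). For serum the differences were -0.60 in WT cells (adjusted p = 0.246) and -0.26 in ΔLEO1 cells (adjusted p = 0.608). Without the highest-numbered library of every group both passed, at -1.03 (adjusted p = 0.00834) and -1.33 (adjusted p = 3.78e-04), and the ΔLEO1 difference of PTGFR passed without Leo1_01 library 12 alone (-0.97, adjusted p = 0.0256). In these 3 comparisons 9508, 12117 and 11760 of all genes were called in either direction.

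PTGER4, a prostaglandin E2 receptor that raises cAMP (ENSG00000171522, chr5:40679498-40693735, plus strand), had its lowest level in WT_10. ERCC-scaled counts were 187, 131 and 117 there, 331, 478 and 186 in WT_01, 416, 324 and 176 in Leo1_10, and 257, 206 and 553 in Leo1_01. WT_01 and Leo1_10 each overlapped WT_10 by their highest-numbered library, and Leo1_01 lay above it. The serum difference in WT cells was 1.195 (SE 0.51) and missed the threshold (adjusted p = 0.0549). It passed with TMM scaling (2.09, adjusted p = 8.41e-14) and without the highest-numbered library of every group (1.35, adjusted p = 0.00197), and also without Leo1_01 library 11 (adjusted p = 0.0195) or library 12 (adjusted p = 0.00991). The genotype differences were 1.07 in 10% serum (adjusted p = 0.256, TMM 0.67 with adjusted p = 0.0316, and 1.22 with adjusted p = 0.0201 without the highest-numbered library of every group) and 0.03 in 0.1% serum (adjusted p = 0.989).

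PTGER2, the other prostaglandin E2 receptor coupled to cAMP (ENSG00000125384, chr14:52314305-52328606, plus strand), was too low to be tested. It had 7, 7 and 5 counts in WT_10, 15, 12 and 5 in WT_01, 7, 9 and 7 in Leo1_10, and 23, 26 and 14 in Leo1_01. The counts were highest in Leo1_01, whose libraries lay above those of Leo1_10 in number, and no test was run. PTGER4 counts exceeded PTGER2 counts in every library, with log2 ratios of 3.06 ± 0.47 in WT_10, 4.31 ± 0.54 in WT_01, 3.61 ± 0.26 in Leo1_10 and 3.28 ± 0.54 in Leo1_01 (SD, n = 3).

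Whether the serum response differed between the genotypes was tested as an interaction. It was called for 0 of the 7 members (all genes 0.0831% lower and 0.136% higher), and edgeR's quasi-likelihood test and DESeq2 also called 0. The value for PTGIS was 1.38 (SE 0.64, 95% interval 0.13 to 2.64). With edgeR's likelihood ratio test PTGIS was the 1 member of the 7 with an unadjusted p under 0.05 (0.0316, adjusted p = 1.00). For PTGS2 the value was 0.51 with an interval of -0.74 to 1.76. PTGER4 had -1.05 (adjusted p = 1.00), which became -2.02 with an adjusted p of 0.0302 without the highest-numbered library of every group.

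The rest of the pathway was described with 4 further lists holding 33 genes, of which 21 were tested. In low serum 12 were lower and 1 higher in WT cells, and 10 were lower and 1 higher in ΔLEO1 cells. Between the genotypes 1 was lower and 1 higher in 10% serum, and 2 were lower and 0 higher in 0.1% serum. The shares of all genes called lower and higher were 36.1% and 0.944% for serum in WT cells, 47.2% and 0.975% in ΔLEO1 cells, 4.64% and 4.2% between the genotypes in 10% serum and 3.59% and 3.85% in 0.1% serum. With TMM scaling 5 were lower and 2 higher for serum in each genotype. The shares of all genes on that scale were 16.6% and 16% in WT cells and 12.9% and 16.5% in ΔLEO1 cells. Between the genotypes 6 were lower and 5 higher in 10% serum with TMM scaling (all genes 21.8% and 17.7%). In 0.1% serum 3 were lower and 4 higher (all genes 17.6% and 15.4%).

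Among the release and recycling genes (8 of 12 tested), 4 were lower in low serum in each genotype. ANXA1, a phospholipase inhibitor, fell by 1.78 on the log2 scale in WT cells (adjusted p = 0.00135) and by 1.83 in ΔLEO1 cells (adjusted p = 0.00136). The lowest value in ΔLEO1 cells was that of PLA2G4C (-2.23, adjusted p = 6.43e-04). PLA2G4C, another member of the cytosolic phospholipase family, was higher in ΔLEO1 cells in 10% serum (1.64, adjusted p = 0.0186), the reverse of PLA2G4A, and that call held in 8 of the 12 fits that left out a library. It was lost without WT_10 library 1 (1.76, adjusted p = 0.0512), library 2 (1.70, 0.0913) or library 3 (1.496, 0.0901) and without Leo1_10 library 6 (1.49, 0.101).

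Of the other synthases (6 of 8 tested), 4 were lower in low serum in each genotype. AKR1B1, an aldo-keto reductase able to make prostaglandin F2 alpha, fell by 1.80 on the log2 scale in WT cells (adjusted p = 0.00160) and by 1.52 in ΔLEO1 cells (adjusted p = 0.00948), where the AKR1B1 call was lost without Leo1_10 library 4 (adjusted p = 0.0826) or Leo1_01 library 10 (adjusted p = 0.0660). With TMM scaling the AKR1B1 difference was -0.92 in WT cells (adjusted p = 0.00305) and -0.36 in ΔLEO1 cells (adjusted p = 0.320). AKR1C3, a reductase with prostaglandin F synthase activity, was lower in ΔLEO1 cells in 0.1% serum (-2.45, adjusted p = 2.71e-04). Its counts there were 153, 167 and 253 in WT cells and 21, 31 and 41 in ΔLEO1 cells, and without Leo1_01 library 12 the AKR1C3 difference was -3.27. AKR1C3 had at least 1.81 CPM in WT_10 and 4.55 in WT_01, but at most 1.06 in Leo1_10 and 1.16 in Leo1_01. It thus passed the filter mainly through its WT libraries, which limits its genotype p-value as for PLA2G4A. Of the breakdown and transport genes (4 of 6 tested), 3 were lower in WT cells and 2 in ΔLEO1 cells in low serum, led by the prostaglandin reductases PTGR1 in WT cells (-1.48, adjusted p = 0.0107) and PTGR3 in ΔLEO1 cells (-1.48, adjusted p = 0.0111). The PTGR1 call was lost without WT_10 library 1 (adjusted p = 0.104), WT_01 library 7 (0.0782) or WT_01 library 9 (0.0705). The PTGR3 call was lost without Leo1_10 library 4 (adjusted p = 0.0853), Leo1_01 library 10 (0.107) or Leo1_01 library 11 (0.0751), and the PTGR3 value was -2.41 without Leo1_01 library 12. HPGD, which encodes the main prostaglandin-inactivating dehydrogenase, had 0 counts in all 12 libraries.

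Among the other receptor genes (3 of 7 tested), PTGFRN stood with PTGFR. It encodes a membrane protein that binds the PTGFR product and limits ligand binding. PTGFRN had 201, 249 and 150 counts in WT_10, 6, 8 and 0 in Leo1_10, 1130, 875 and 1142 in WT_01, and 89, 91 and 97 in Leo1_01. It was lower in ΔLEO1 cells in 10% serum (-5.25, adjusted p = 6.26e-14, or -4.58 without Leo1_10 library 6) and in 0.1% serum (-3.39, adjusted p = 2.82e-08). In low serum it rose in WT cells (1.58, adjusted p = 0.0124, lost without WT_01 library 7 at an adjusted p of 0.0573) and in ΔLEO1 cells (3.44, adjusted p = 3.43e-06, or 2.77 without Leo1_10 library 6). PTGIR, the prostacyclin receptor, fell in low serum in WT cells (-1.74, adjusted p = 0.00597). Without WT_01 library 7 or library 9 the adjusted p of PTGIR was 0.0626 or 0.0751. With TMM scaling the PTGIR difference was -0.84 (adjusted p = 0.0652).

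**Figure D5:**
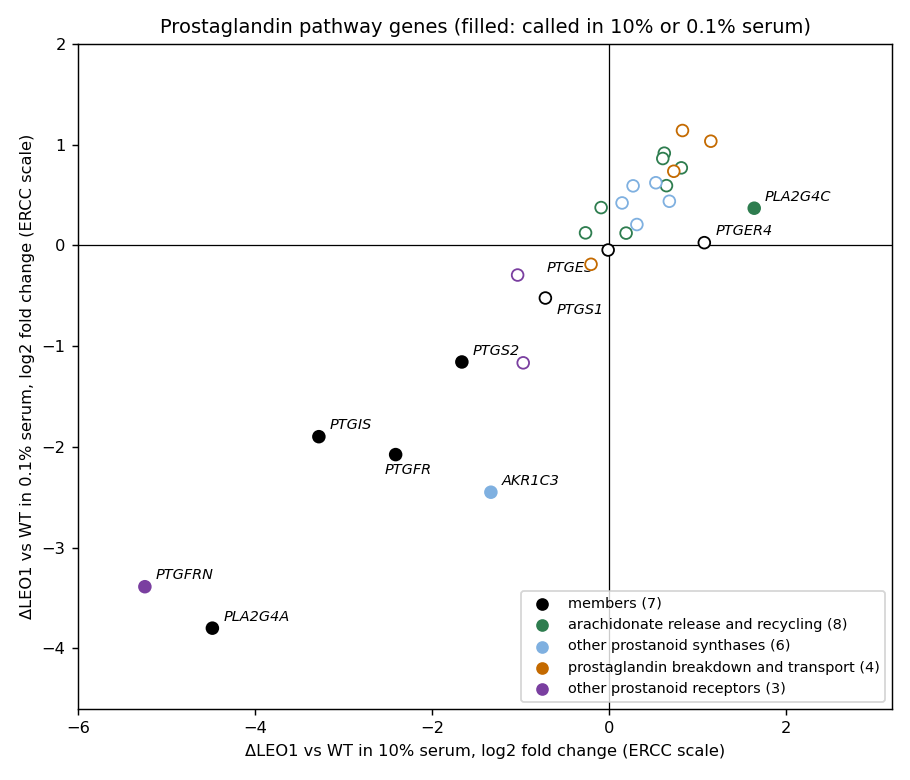
Genotype differences of 28 tested pathway genes, with the log2 fold change of ΔLEO1 against WT in 10% serum on the horizontal axis and in 0.1% serum on the vertical axis, both on the ERCC scale. Colours mark the members and the 4 further lists, and filled points were called in 10% or 0.1% serum. PLA2G4A and PTGFRN lie lowest in both, and PLA2G4C is the one called higher.

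Of the lipoxygenase branch, which makes leukotrienes from the same arachidonate, 1 of 7 genes was tested and it was not called. Of 18 genes of the cAMP pathway downstream of PTGER2 and PTGER4, 17 were tested. In low serum 5 were lower and 0 higher in WT cells and 6 lower and 0 higher in ΔLEO1 cells, led by NR4A3, an orphan nuclear receptor induced by cAMP (-3.60, adjusted p = 4.06e-09, and -2.47, adjusted p = 8.71e-05). The NR4A3 values were -3.01 in WT cells without WT_10 library 3 and -3.58 in ΔLEO1 cells without Leo1_01 library 12. These cAMP counts lay below the shares of all genes called lower (36.1% and 47.2%). With TMM scaling they were 4 lower and 2 higher in WT cells (all genes 16.6% and 16%). In ΔLEO1 cells they were 2 lower and 4 higher on that scale (all genes 12.9% and 16.5%). Between the genotypes 1 was called, PDE4D, a cAMP phosphodiesterase that was higher in ΔLEO1 cells in 10% serum (1.82, adjusted p = 0.00455).

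The levels of 3 members moved most alike over the 12 libraries. Pearson's r of log2 CPM was 0.96 for PTGFR and PLA2G4A, 0.95 for PTGIS and PTGFR and 0.94 for PTGIS and PLA2G4A, against -0.51 for PTGS2 and PTGER4. These 12 points share 4 groups and a single total count each, so they describe the groups more than single libraries. Among 12821 genes with a symbol, those most like PLA2G4A included MSX2, a homeobox factor, and EDA2R (r = 0.99 for each). PTGIS was most like HTRA1, SIX2 and RMDN1, PTGFR like ARSD, ANK2 and DDB2, and PTGS2 like ICAM1, an adhesion molecule of inflamed cells (r = 0.96), AMPD3 and FCHSD2. The nearest genes were MTFR1L, TMEM223 and PTN for PTGS1, MVP, PCBP1 and CCL11 for PTGES, and ZNF316, PAPOLG and SYF2 for PTGER4, with r from 0.95 to 0.98.

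PLA2G4A and PTGS2 lie on chromosome 1 with 148525 bases between them. Of the 3 other tested genes within 1000000 bases, which were HMCN1, ODR4 and TPR, none was called between the genotypes in either serum. PTGIS had 18 tested neighbours within this distance, with a median log2 fold change of 0.52 in 10% serum and 0.47 in 0.1% serum. PTGFR had 10 tested neighbours, of which 0 were lower and 2 higher in each serum. Of all genes 4.64% were called lower and 4.2% higher in 10% serum, and 3.59% and 3.85% in 0.1% serum. The median neighbour of PTGIS thus lay above 0 in both sera, where PTGIS itself was lower in ΔLEO1 cells.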

How the data were processed

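Poly(A) RNA from 12 libraries of BJ-5ta cells was measured by RNA-seq with ERCC transcripts added. The authors aligned reads to the genome together with the ERCC sequences and deposited raw counts per gene and per ERCC transcript. The submitters' processing notes name bcl2fastq 2.20.0.422, STAR 2.7.10a, featureCounts 1.5.1 and GRCh38. The methods name Ensembl as the origin of the genome and annotation. The release and the strand setting are not given in the sources used here. Gene positions and exon lengths came from GENCODE, and promoter sequences from RefSeq on GRCh38.p14.

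Tests used edgeR 4.0.16 in R 4.3.3 with limma 3.58.1. The filter of more than 1 CPM in at least 3 libraries left 13236 genes. Each library was scaled by its ERCC total multiplied by a TMM factor from the ERCC transcripts. All 12 libraries entered 1 negative binomial fit with 4 groups, and differences were tested by two-sided likelihood ratio tests with Benjamini-Hochberg adjustment over all tested genes and a threshold of 0.05. An ERCC-scaled count is a count per 1000000 of the effective ERCC size. CPM is per 1000000 gene counts. Ratios used counts plus 0.5 and exact permutation tests. Intervals of log2 fold changes are the estimate with its SE at 95%.

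The members and lists were chosen with earlier results of these data known. The text names all 9 members, the called genes of each other list with the largest change in each direction, and the 3 genes most correlated with each tested member over log2 CPM with a prior count of 2, except that some genes are not reported here. LEO1, EGR1, TNFAIP3, HPGD and the neighbouring genes were named after their values were seen. Alternatives were the quasi-likelihood test, DESeq2 1.42.0, TMM or median-ratio scaling on the genes, ERCC totals alone, other filters, fewer libraries and a term for the highest-numbered library. The procedure was tested on simulated data with 13236 genes for the serum comparison in WT cells, where the likelihood ratio test recovered 78 of 100 genes changed by 2 on the log2 scale and 100 of 100 changed by 3, with 12 of 13036 unchanged genes called. For the interaction it recovered 37 and 85 of 100, with 4 unchanged genes called. The simulated counts were drawn independently, with the ERCC sizes taken as exact and no library set apart. These rates therefore do not cover errors of the ERCC scaling or effects shared by the genes of a library. Python 3.11.15 and matplotlib 3.10.9 drew the figures. Other data of the study were not analysed here.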

Additional observations from a re-analysis of the deposited data

Results flagged for a closer look

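The interaction of genotype and serum was called for CXCL8 and IL6, inflammatory genes listed beside PTGS2. For CXCL8 the serum difference was -5.999 in WT cells and -1.98 in ΔLEO1 cells on the log2 scale, an interaction of 4.02 (adjusted p = 3.47e-05, edgeR's likelihood ratio test). For IL6 the differences were -5.74 and -2.36, an interaction of 3.38 (adjusted p = 0.00453). Both rested on WT_10 library 3, which held 9244 counts of CXCL8 and 4517 of IL6. Without that library the interaction was 0.65 for CXCL8 and 0.40 for IL6, each with an adjusted p of 1.00. For IL6 the call was also lost without Leo1_10 library 6 (3.01, adjusted p = 0.133), WT_01 library 7 (3.36, adjusted p = 0.0625) or WT_01 library 9 (2.89, adjusted p = 0.136). The CXCL8 serum difference in ΔLEO1 cells was not called without Leo1_10 library 5 (-1.40, adjusted p = 0.0509). With TMM scaling the serum difference in ΔLEO1 cells was called for neither CXCL8 (-0.54, adjusted p = 0.776) nor IL6 (-1.05, adjusted p = 0.482). The interaction was also not called on that scale, at 5.08 for CXCL8 (adjusted p = 0.0881) and 4.31 for IL6 (adjusted p = 0.0913).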

How the results depend on the processing

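No paired analysis was possible because the labels number the libraries from 1 to 12 with no number used by 2 groups. Genotype calls of PLA2G4A, PTGIS and PTGFR held in both sera under the alternatives run, except that PTGIS (adjusted p = 0.190) and PTGFR (adjusted p = 0.0847) were lost in 0.1% serum after summing the 2 lowest-numbered libraries within groups. PLA2G4A passed the filter through its WT libraries alone, so its calls are not read as support for the difference.

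The count of members lower in low serum in WT cells was 2, and 1 with DESeq2, with either scaling on the genes, with no filter and with summed libraries. PTGFR was also called lower without the highest-numbered libraries (-1.03) and with a term for them (-1.26), settings that called 9508 and 9566 genes in either direction. The count higher was 0, and 1 with DESeq2, with the 6 libraries compared alone and without the highest-numbered libraries, and 3 with either scaling on the genes. In ΔLEO1 cells the count lower was 1, and 0 with either scaling on the genes and with summed libraries. It was 4 without the highest-numbered libraries and 2 with a term for them, settings that called 12117 and 10712 genes in either direction. The count higher was 0, and 5 with either scaling on the genes. Between the genotypes in 10% serum the count higher was 0, and 1 with either scaling on the genes and without the highest-numbered libraries. The count lower there was 4, and 5 with TMM scaling. In 0.1% serum the count lower was 3, 4 with TMM scaling and 1 with summed libraries. PTGS2 was also called lower there without the highest-numbered libraries (-1.90). The interaction gave 0 lower, and 1 without the highest-numbered libraries. Leaving out each library in turn gave 1 to 2 lower and 0 to 1 higher for serum in WT cells, 1 to 2 lower for serum in ΔLEO1 cells, 3 to 4 lower between the genotypes in each serum, and 0 otherwise. In those fits the calls over all genes for serum in WT cells ran from 1196 (without WT_01 library 7) to 8789 (without Leo1_01 library 12). For serum in ΔLEO1 cells they ran from 709 (without Leo1_01 library 10) to 11760 (without Leo1_01 library 12).

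The sign turned for some differences, of which the genotype difference of IL1B in 10% serum and the interaction of IL6 had been called. With TMM and with median-ratio scaling on the genes, the serum differences in WT cells became 0.24 and 0.24 for PTGS1, 0.65 and 0.65 for PTGES, 0.51 and 0.51 for PTGFR, and 0.99 and 0.99 for PLA2G4A. In ΔLEO1 cells they became 0.66 and 0.66 for PTGS1, 0.97 and 0.97 for PTGES, and 0.76 and 0.75 for PTGFR. The genotype difference of PTGER4 in 0.1% serum became -0.14 and -0.14, and the interaction of PTGES 0.32 and 0.32.

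Without the highest-numbered libraries the serum difference in ΔLEO1 cells became -0.78 for PTGIS and -0.67 for PTGER4, the genotype difference in 10% serum 0.025 for PTGES and 0.31 for IL1B, and that in 0.1% serum -0.80 for PTGER4. The interaction became -0.28 for PTGS1, -0.90 for PTGS2, -0.30 for PTGFR and -0.50 for IL6. Log2 ratios moved to -1.24 (PTGS2 to PTGS1, serum in WT cells), -0.34 (the same, genotype in 10% serum), -1.45 (PTGIS to PTGES, serum in WT cells), -3.67 (the same, genotype in 10% serum), -0.78 (PTGER4 to PTGER2, serum in ΔLEO1 cells) and 0.96 (the same, genotype in 10% serum). With a term for these libraries, PTGIS had -0.75 and PTGER4 -0.15 for serum in ΔLEO1 cells, PTGER4 -0.048 between the genotypes in 0.1% serum, and PTGES an interaction of 0.014. With summed libraries, PLA2G4A had 0.041 for serum in WT cells, PTGFR 0.19 for serum in ΔLEO1 cells, and PTGES 0.12 between the genotypes in 0.1% serum and 0.17 for the interaction.

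Leaving out 1 library turned the sign of PLA2G4A for serum in WT cells (-0.27 to 0.23), of PTGIS (-0.76 to 0.56), PTGER4 (-0.39 to 0.42) and PTGFR (-0.97 to 0.12) for serum in ΔLEO1 cells, of PTGES (-0.26 to 0.15) and IL1B (-2.03 to 0.40) between the genotypes in 10% serum, of PTGES (-0.27 to 0.25) and PTGER4 (-0.51 to 0.38) in 0.1% serum, and of PTGS1 (-0.082 to 0.51), PTGES (-0.25 to 0.26) and PTGFR (-0.37 to 0.72) for the interaction. The cause of these differences was not tested. Counts of PTGER2, PTGDS and ΔLEO1 PLA2G4A limit their precision.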
